A study of Mus musculus with 12 samples.

Results

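The 10 glycolytic enzymes Hk1, Gpi1, Aldoa, Tpi1, Gapdh, Pgk1, Pgam1, Eno2, Pkm and Ldha were followed across regions and section types of the mouse hippocampus. They are 10 of the 32546 genes in the table of unique molecular identifiers (UMIs), were chosen by their symbols while earlier results of these data were known, and all 10 were found. The study applied photo-isolation chemistry (PIC), in which a light-caged primer starts reverse transcription in the section and light then marks the cDNA of a chosen area, to CA1, CA3 and the dentate gyrus (DG). All sections came from male ICR mice 8 weeks old. Sections of brain frozen without prior fixation were opened either by 5 min in 0.1 N HCl (fresh-frozen HCl) or by 1 h in TE buffer at 70 °C (fresh-frozen TE), and sections of formalin-fixed brain, frozen (fixed frozen TE) or embedded in paraffin (fixed paraffin TE), received TE only. In the protocol, all sections were also briefly post-fixed with paraformaldehyde on the slide, and the HCl treatment included Triton X-100 before and warm PBS after the acid, so HCl and TE sections differed by more than the acid. Each of these 12 combinations of region and section type was 1 library that pooled 4 biological replicates by barcode, giving 48 replicates, so the library and the group cannot be told apart. The titles and the paper name CA3 where the series description has CA2, and the titles were followed.

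Glycolysis splits glucose into pyruvate in the cytosol and yields ATP and NADH, and lactate dehydrogenase can then turn pyruvate into lactate. Neurons and glia both use it and divide some steps between isozymes: Eno2 is the neuronal enolase, while the aldolase Aldoc is typical of astrocytes. Gapdh, the dehydrogenase in the middle of the pathway, is a customary reference gene and has left many processed pseudogenes, which are copies of its mRNA inserted back into the genome.

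Totals ran from 127253 to 933756 UMIs per replicate in fresh-frozen HCl, from 294445 to 1111804 in fresh-frozen TE, from 52800 to 307145 in fixed frozen TE and from 35932 to 223055 in fixed paraffin TE. Replicate 4 was the lowest in all 12 libraries. Levels below are CPM, the UMIs of a gene scaled to a replicate total of 1000000 UMIs. A single UMI stood for 0.899 to 7.86 CPM in fresh-frozen replicates, for 3.26 to 18.9 CPM in fixed frozen TE and for 4.48 to 27.8 CPM in fixed paraffin TE, so low genes were measured coarsely in fixed tissue. Summed markers of CA1, CA3 and DG were each highest in their own region in all 4 section types. Single markers could differ: in fixed paraffin TE the CA3 marker Iyd had no UMIs in CA3, while all 4 CA3 markers were detected in DG. Markers of astrocytes were highest in DG and ranged from 4650 to 8370 CPM in fresh-frozen TE but from 1810 to 2740 CPM in fixed frozen TE, and markers of oligodendrocytes were highest in CA1, up to 21600 CPM. In such irradiated areas, fewer cells of a type and less RNA per cell cannot be told apart.

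The 10 enzymes held 46691 of 18317781 UMIs, which is 0.255%. Summed over the 48 replicates there were 11879 UMIs of Aldoa, 10839 of Pkm, 6164 of Eno2, 5157 of Hk1, 5085 of Gpi1, 4351 of Ldha, 1903 of Tpi1, 858 of Gapdh, 339 of Pgam1 and 116 of Pgk1. The 7 members other than Gapdh, Pgk1 and Pgam1 had UMIs in every replicate. Pgam1 was counted in 44 replicates, Pgk1 in 36 and Gapdh in 35. Gapdh ranked 4455 among all genes by UMIs, and its processed pseudogene Gm7336, with 1000 UMIs, ranked 3958.

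The transcript of Gapdh was compared with those of all annotated genes, since the counting described in the methods leaves reads with several mapping places uncounted, which the table itself cannot show. Gapdh (ENSMUSG00000057666) lies at chr6:125161715-125166467 on the minus strand of GRCm38. Its last 500 bases, where reads primed at the poly(A) tail fall, hold 451 windows of 50 bases, and 408 of these (90.5%) occur without a mismatch in the transcript of another gene. Among 18702 protein-coding genes, 12.4% had any shared window and 0.83% shared at least 90%. Gm7336 (ENSMUSG00000078636), at chr7:51746647-51747878 on the plus strand, shares all 408. Over these 500 bases it differs from Gapdh by 2 inserted bases alone, an additional AG in a run of AG repeats in the 3′ UTR. The site is shown because the 43 windows particular to Gapdh are those that span it. Capitals mark the AG repeats, 3 in Gapdh and 4 in the copies, and the sequences are read 5′ to 3′ from GENCODE transcripts, at chr6:125161969-125161998 (minus strand) for Gapdh, chr7:51747732-51747761 (plus) for Gm7336 and chr14:11280869-11280898 (minus) for Gm3839.
Gapdh: tgagcaAGAGAGgccctatcccaactcggc
Gm7336: tgagcaAGAGAGAGgccctatcccaactcg
Gm3839: tgagcaAGAGAGAGgccctatcccaactcg
Gm3272 and Gm10358 hold the same 30 bases as Gm7336. Gm3272 and Gm10358 each have 1 substitution besides the 2 inserted bases, and Gm3839 has 3.

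In all, 141 annotated genes share at least 1 window with Gapdh, 43 of them are in the table with 1659 UMIs, and 11 of those hold at least 10 UMIs. Of the 141 genes, 19 share at least 50% of the windows, and the 7 of these that are in the table, called the copies of Gapdh from here on, hold 1246 UMIs. The copy with the most UMIs is Gm7336. Of the other genes that share windows, Gm5069 held 173 UMIs, Gm3839 163, Gm11960 75, 3000002C10Rik 53, Gm5559 51, Gm10290 29, Gm3272 20, Vmn2r60 14 and Gm8055 12. These were named for their UMIs after the values were seen.

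Gapdh was read at very different levels in the 12 libraries. In fresh-frozen HCl, the 4 replicates of CA1 had 54.7, 111, 288 and 126 CPM (144.9 ± 99.95, SD, n = 4). In CA3 of the same section type they had 34.3, 156, 60.5 and 21.9 CPM (68.3 ± 60.9), and in DG 5.68, 14.0, 5.08 and 4.19 CPM (7.22 ± 4.53). Every DG value lay below every CA1 and CA3 value, while CA1 and CA3 overlapped.

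In fresh-frozen TE, Gapdh had 14.9, 21.1, 28.4 and 10.8 CPM in CA1, 20.6, 31.5, 64.3 and 17.6 CPM in CA3, and 4.07, 15.3, 10.1 and 6.79 CPM in DG. All CA3 replicates were above all DG replicates, and CA1 overlapped both. In fixed frozen TE, the values were 0, 22.1, 25.6 and 0 CPM in CA1, 20.4, 35.3, 39.1 and 18.9 CPM in CA3, and 7.45, 26.05, 8.25 and 0 CPM in DG. These rest on 31 UMIs in 12 replicates. In fixed paraffin TE, Gapdh was at 0 in 10 of 12 replicates and had 5 UMIs in all, 3 in replicate 2 of CA3 (30.2 CPM) and 2 in replicate 3 of DG (8.97 CPM). The paraffin CA1 library held 0 UMIs of Gapdh, which allows up to 14.3 CPM (3 UMIs of the library total, counting error only). In the order of library means, each neighbour overlapped the next in range.

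Gm7336 was higher in fixed than in fresh-frozen tissue. It had 16.7 to 62.0 CPM in fresh-frozen HCl (median 34.4) and 1.95 to 26.5 CPM in fresh-frozen TE (median 8.45), but 174 to 479 CPM in fixed frozen TE (median 212) and 71.1 to 554 CPM in fixed paraffin TE (median 144). The 24 fixed replicates all lay above the 24 fresh-frozen ones. Within fixed frozen TE, CA3 had 479, 466, 431 and 473 CPM, and CA1 had 174, 199, 179 and 203 CPM. DG had 268, 176, 190 and 220 CPM. CA3 stood above both other regions without overlap.

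Of the UMIs of Gapdh and its 7 copies together, Gapdh held 61.6% in fresh-frozen HCl and 61.0% in fresh-frozen TE, but 5.81% in fixed frozen TE and 2.16% in fixed paraffin TE. Per replicate its share was 8.00 to 78.6% in fresh-frozen HCl and 28.6 to 83.3% in fresh-frozen TE. It was 0 to 12.9% in fixed frozen TE and 0 to 6.45% in fixed paraffin TE. Within fresh-frozen HCl the share was 72.6% for CA1 and 62.8% for CA3. For DG it was 12.7%, from 16 UMIs of Gapdh and 110 of its copies.

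The sum of Gapdh and its copies was 29.3 to 366 CPM in fresh-frozen HCl, 12.2 to 77.2 CPM in fresh-frozen TE, 202 to 631 CPM in fixed frozen TE and 77.8 to 627 CPM in fixed paraffin TE. The table of counts cannot tell a transcript of Gapdh from a transcript of a copy where their sequences match, so neither the Gapdh value nor the sum is a level of Gapdh mRNA alone. Why the split differed between section types was not tested.

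**Figure D1:**
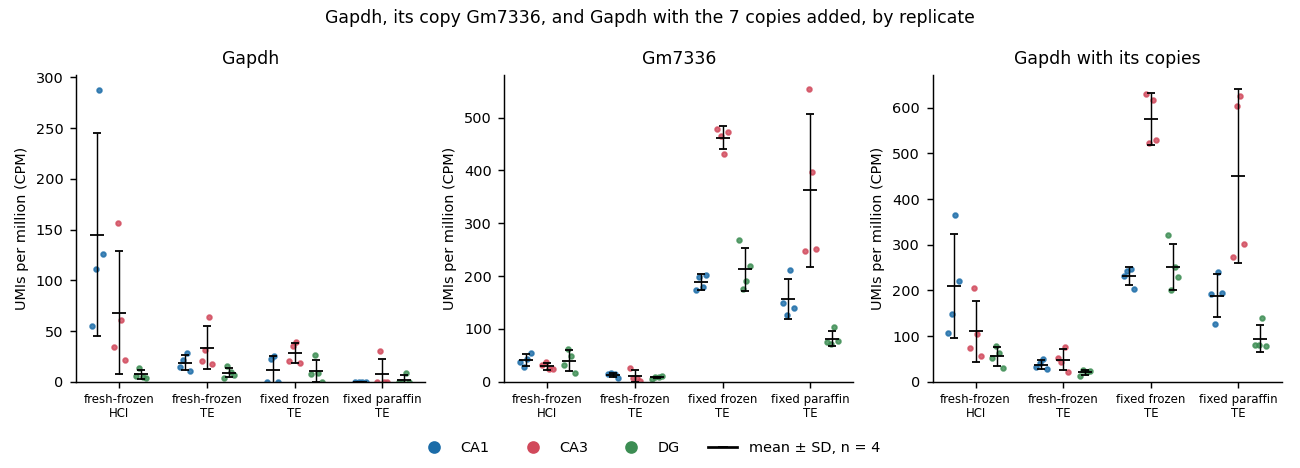
Scaled UMI counts (CPM, linear axes from 0) of Gapdh, of its pseudogene Gm7336 and of Gapdh with its 7 copies added, for each of the 4 replicates (points) of 3 regions (colours) in 4 section types (x axis), with mean ± SD. Gapdh is highest in CA1 of fresh-frozen HCl (54.7 to 288 CPM) and at 0 in 10 of 12 paraffin replicates, whereas all fixed replicates of Gm7336 (71.1 to 554 CPM) are above all fresh-frozen ones.

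The other 9 enzymes shared little of their 3′ ends with other genes. Pgk1 had 33 of 451 windows shared (7.32%), Gpi1 28 (6.21%) and Aldoa 15 (3.33%), and Hk1, Tpi1, Pgam1, Eno2, Pkm and Ldha had 0. The windows of Gpi1 belong to a stretch repeated in many unrelated genes, and those genes were not treated as copies. With up to 1 mismatch, the share was 17.5% for Gpi1, 16.2% for Aldoa, 7.54% for Pgk1 and 3.10% for Eno2. It stayed at 0 for Hk1, Tpi1, Pgam1, Pkm and Ldha. Over the last 1000 bases the share was 56.0% for Pgk1, 25.03% for Pkm, 21.1% for Aldoa, 13.2% for Ldha and 9.57% for Tpi1. Exons of Pkm and Gpi1 also overlap other annotated genes, Gm49759 over 15.3% of the exonic bases of Pkm and Gm26762 over 11.5% of those of Gpi1, where reads would be assigned to neither.

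**Figure D2:**
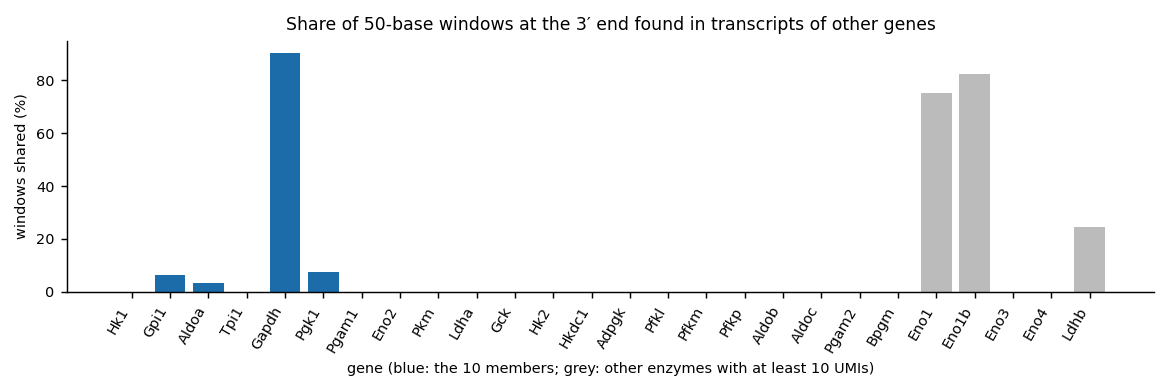
Percent of the 50-base windows in the last 500 bases of each transcript that also occur without a mismatch in a transcript of another gene, for the 10 enzymes (blue) and for further glycolytic enzymes with at least 10 UMIs (grey). Gapdh reaches 90.5%, the other 9 enzymes stay at or below 7.32%, and Eno1 (75.2%) and Eno1b (82.3%) are the grey bars nearest to Gapdh.

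The enolase pair Eno1 and Eno1b, which share 75.2% and 82.3% of their windows with other genes, also changed its split between section types. Eno1 is the widely expressed enolase, and Eno1b is a gene on chromosome 18 with nearly the same sequence. Of the UMIs of the pair, Eno1 held 100 of 151 (66.2%) in fresh-frozen TE and 8 of 100 (8.00%) in fixed frozen TE. Eno1b had 2.70 to 13.5 CPM in fresh-frozen TE and 25.6 to 102 CPM in fixed frozen TE, with no overlap. With edgeR, Eno1b was higher in fixed frozen TE (log2 fold change 3.06, SE 0.28, adjusted p = 9.78e-17) and Eno1 was lower (−1.32, SE 0.49, adjusted p = 0.0207).

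The enzymes before Gapdh were counted in every replicate. Hk1, the hexokinase that phosphorylates glucose, had 173 to 477 CPM in fresh-frozen HCl (median 286), 146 to 297 in fresh-frozen TE (median 222), 272 to 549 in fixed frozen TE (median 421) and 187 to 451 in fixed paraffin TE (median 278). Gpi1, the isomerase of the next step, had medians of 277, 242, 182 and 133 CPM in the same order of section types. The medians of Gpi1 stood in descending order along that list, although the replicates overlapped. Aldoa, the aldolase that splits the sugar into triose phosphates, had 301 to 763 CPM in fresh-frozen HCl, 490 to 766 in fresh-frozen TE, 666 to 1810 in fixed frozen TE and 256.1 to 1060 in fixed paraffin TE. Tpi1, which interconverts the triose phosphates, had 25.1 to 161 CPM, 62.1 to 169 CPM, 27.5 to 205 CPM and 24.8 to 252 CPM in the same order. The 4 ranges of Tpi1 overlapped widely.

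Pgk1 and Pgam1, which act after Gapdh, were sparse. Pgk1, the kinase that forms the pathway's first ATP, had at most 8.57 CPM in fresh-frozen HCl, 13.5 CPM in fresh-frozen TE and 61.1 CPM in fixed frozen TE, on 38, 40 and 28 UMIs. In fixed paraffin TE it had 10 UMIs, spread over 7 of 12 replicates. Pgam1, the phosphoglycerate mutase, had 4.65 to 39.3 CPM in fresh-frozen HCl (median 16.1), 0 to 11.9 CPM in fresh-frozen TE (median 7.59), 19.5 to 157 CPM in fixed frozen TE (median 47.8) and 0 to 105 CPM in fixed paraffin TE (median 33.3). All fixed frozen replicates of Pgam1 were above all fresh-frozen TE replicates. The remaining enzymes were abundant. Eno2 had 201 to 676 CPM in fresh-frozen HCl and 139 to 380 CPM in fresh-frozen TE, and 138 to 628 CPM and 75.2 to 878 CPM in fixed frozen TE and fixed paraffin TE. Pkm, the pyruvate kinase, had 394 to 805, 367 to 602, 550 to 1250 and 491 to 1420 CPM in the same order. Ldha, a subunit of lactate dehydrogenase, had 141 to 209, 182 to 417, 277 to 550 and 176 to 584 CPM. Ldha thus had its lowest and narrowest range in fresh-frozen HCl.

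**Figure D3:**
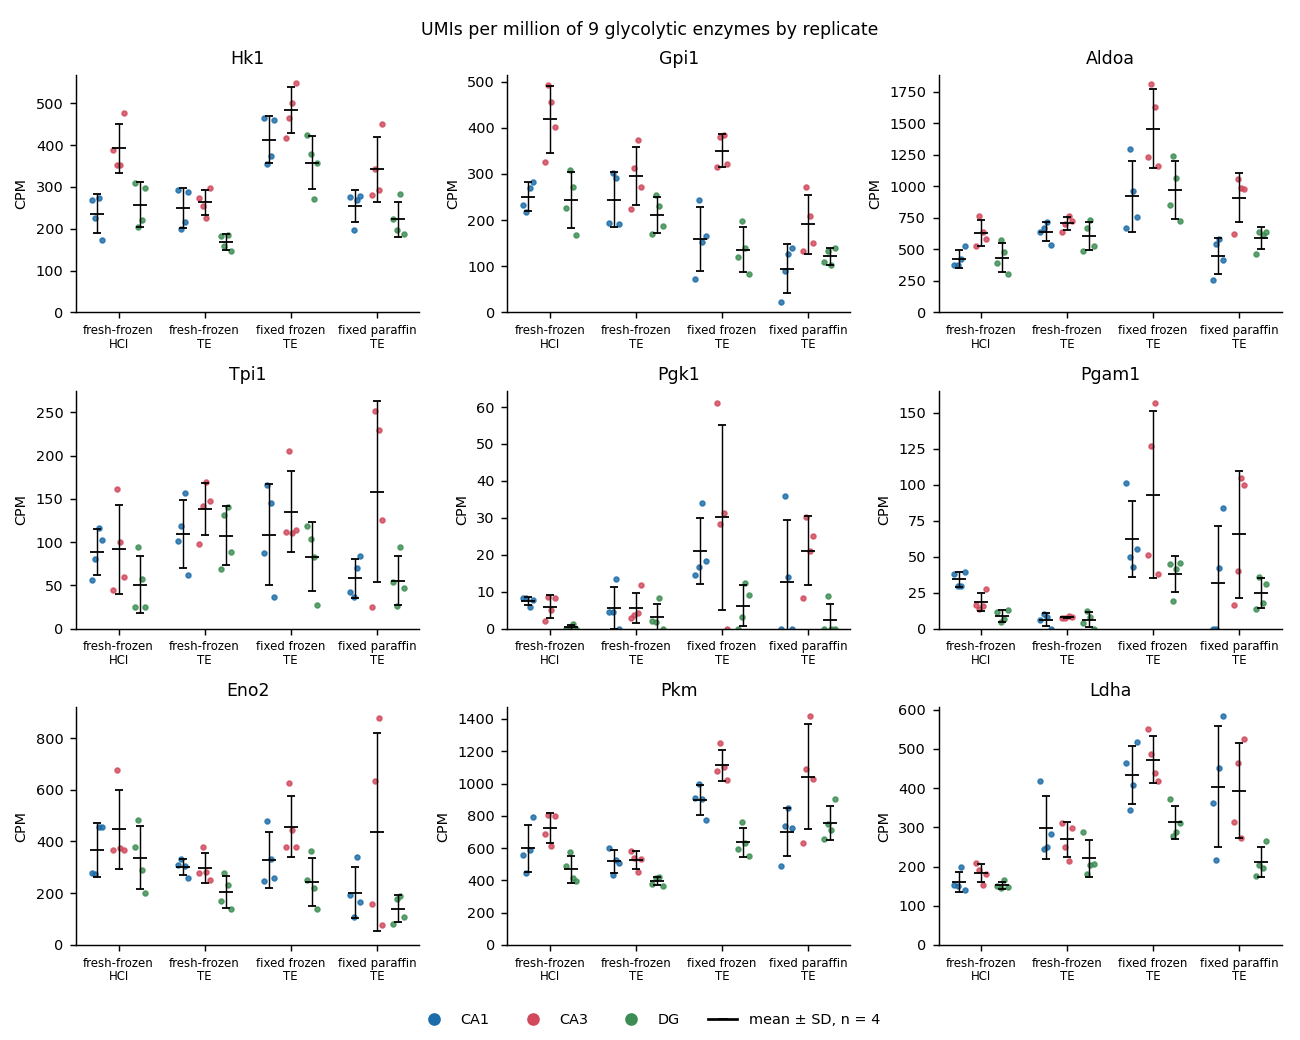
Scaled UMI counts (CPM, linear axes from 0) of the other 9 enzymes for each of the 4 replicates (points) of 3 regions (colours) in 4 section types, with mean ± SD. Aldoa (666 to 1810 CPM), Pkm (550 to 1250 CPM) and Pgam1 (19.5 to 157 CPM) reach higher in fixed frozen TE than in fresh-frozen TE, and CA3 has the highest mean of each of these enzymes in fixed frozen TE.

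Permeabilization with HCl was compared with TE in fresh-frozen sections with edgeR over 24 replicates, with region in the model. In HCl, 3 of the 10 enzymes were higher, where 16.2% of all genes tested were, and 3 were lower, where 14.3% were. Gapdh was higher (log2 fold change 1.48, SE 0.31, adjusted p = 0.000139), as were Pgam1 (1.26, SE 0.27, adjusted p = 0.000248) and Eno2 (0.37, SE 0.13, adjusted p = 0.0181). Ldha (−0.79, SE 0.11, adjusted p = 6.2e-08), Tpi1 (−0.77, SE 0.17, adjusted p = 0.000352) and Aldoa (−0.55, SE 0.10, adjusted p = 1.93e-05) were lower. Without replicate 3, Eno2 did not pass (adjusted p = 0.066). Hk1, Gpi1, Pgk1 and Pkm did not pass. The median over all genes tested was 0.10 and over the 10 enzymes 0.14. Without TMM scaling the split of all genes moved from 2945 higher and 2605 lower to 4178 and 1831.

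The HCl difference of Gapdh was also fitted in each region alone. It was 2.75 (SE 0.33, adjusted p = 7.43e-09) in CA1, 0.86 (SE 0.42, adjusted p = 0.191) in CA3 and −0.41 (SE 0.55, adjusted p = 0.684) in DG. Pgam1 had 2.09 (SE 0.41, adjusted p = 0.000125) in CA1, 1.10 (SE 0.36, adjusted p = 0.0432) in CA3 and −0.01 (SE 0.53, adjusted p = 0.994) in DG. Separate fits do not test a difference between regions. In the edgeR fit to all 48 replicates described below, such a difference was called for Gapdh between CA1 and DG (3.11, adjusted p = 0.0125). That call was lost in 1 of 4 fits that left out a replicate number, and Pgam1 was not called. Gm7336 was higher with HCl as well (1.55, SE 0.23, adjusted p = 2.38e-07), and so was Gapdh with its copies added (1.57, SE 0.21, adjusted p = 3.4e-08).

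Fixation was compared between frozen sections of fixed and of fresh brain, both permeabilized with TE. In fixed tissue, 7 of the 10 enzymes were higher, where 15.8% of all genes tested were, and 0 were lower by edgeR, where 32.9% were. In either direction, 8 of the 10 had an unadjusted p under 0.05, and DESeq2 called 6. Over all genes, 8767 of 15878 had an unadjusted p under 0.05, and DESeq2 called 6759 of 14030. Pgam1 rose most among them (3.06, SE 0.29, adjusted p = 4.75e-16), from a mean of 6.64 to 64.4 CPM, without overlap of the replicates. Pgk1 rose by 1.85 (SE 0.42, adjusted p = 0.000156), on 28 UMIs in fixed tissue, and this call was lost under 4 of 19 alternatives. Hk1 (0.81, SE 0.11), Pkm (0.80, SE 0.10), Aldoa (0.72, SE 0.11) and Ldha (0.53, SE 0.12) rose less, and Eno2 rose least (0.33, SE 0.13, adjusted p = 0.0256). Without replicate 2 or 3, Eno2 did not pass (adjusted p = 0.347 and 0.11). The median of all genes tested was −0.39 and that of the 10 enzymes 0.62, so the median enzyme stood 1.01 above the median gene. These shares depended on the filter on low counts. With filterByExpr, 2103 of 6486 genes were higher and 2264 lower, with a median of −0.05, and 6 of 8 enzymes tested were called.

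Gapdh did not pass the test between fixed and fresh frozen sections (−0.08, SE 0.33, adjusted p = 0.87), which does not show equal levels. Tpi1 (−0.11, SE 0.17, adjusted p = 0.601) and Gpi1 (−0.29, SE 0.14, adjusted p = 0.072) did not pass either. Some genes that share windows with Gapdh did. Gm7336 was higher by 4.58 (SE 0.19, adjusted p = 1.5e-37), from a mean of 10.9 to 288.1 CPM, and Gm3839 by 4.00 (SE 0.43, adjusted p = 2.79e-13). Gm5069, which shares 19.7% of the windows, was higher by 2.06 (SE 0.38, adjusted p = 4.19e-06), and Gm11960 was lower (−2.34, SE 0.85, adjusted p = 0.0182). Gm11960 had 35 UMIs in fresh-frozen TE and 1 in fixed frozen TE. In the same order, the copy Gm5559 had 11 and 1 UMIs, 3000002C10Rik 17 and 1, and the copy Gm3272 3 and 6. The totals of fixed frozen TE were smaller. Mean CPM were 4.41 and 0.62 for Gm11960, 1.37 and 0.71 for Gm5559, 2.005 and 0.34 for 3000002C10Rik and 0.42 and 3.92 for Gm3272. With the UMIs of its copies added, Gapdh was higher by 3.18 (SE 0.15, adjusted p = 3.08e-33). Its call therefore depended on whether copies were counted with it.

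Embedding in paraffin was compared with frozen sections of fixed brain, both with TE. In paraffin, 7 of the 10 enzymes were lower, where 14.4% of all genes tested were, and 0 were higher by edgeR, where 13.7% were. In either direction, 8 of the 10 had an unadjusted p under 0.05, and DESeq2 called 3. Over all genes, 4670 of 12189 had an unadjusted p under 0.05, and DESeq2 called 2846 of 11477. Gapdh fell by 1.89 on the log2 scale (SE 0.60, adjusted p = 0.0102), from 31 to 5 UMIs, and its call was lost without replicate 1 (adjusted p = 0.0562) or replicate 2 (adjusted p = 0.0529). Aldoa (−0.95, SE 0.14, adjusted p = 3.46e-09), Gpi1 (−0.75, SE 0.19, adjusted p = 0.000776), Hk1 (−0.73, SE 0.16, adjusted p = 6.69e-05) and Eno2 (−0.64, SE 0.17, adjusted p = 0.00162) were lower, Eno2 not so without replicate 2 (adjusted p = 0.0512). Pgam1 (−0.98, SE 0.33, adjusted p = 0.0148) and Ldha (−0.46, SE 0.16, adjusted p = 0.0165) were lower too, but neither passed without replicate 1 (adjusted p = 0.182 and 0.172) or without replicate 3 (adjusted p = 0.0788 for both). Tpi1 (−0.51, SE 0.23, adjusted p = 0.0862) and Pkm (−0.21, SE 0.14, adjusted p = 0.265) did not pass. Gm7336 fell by 0.73 (SE 0.17, adjusted p = 0.000372). The split of all genes, 1666 higher and 1753 lower, became 2353 and 1231 with the size factors of DESeq2 and 2173 and 1376 without TMM.

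**Figure D4:**
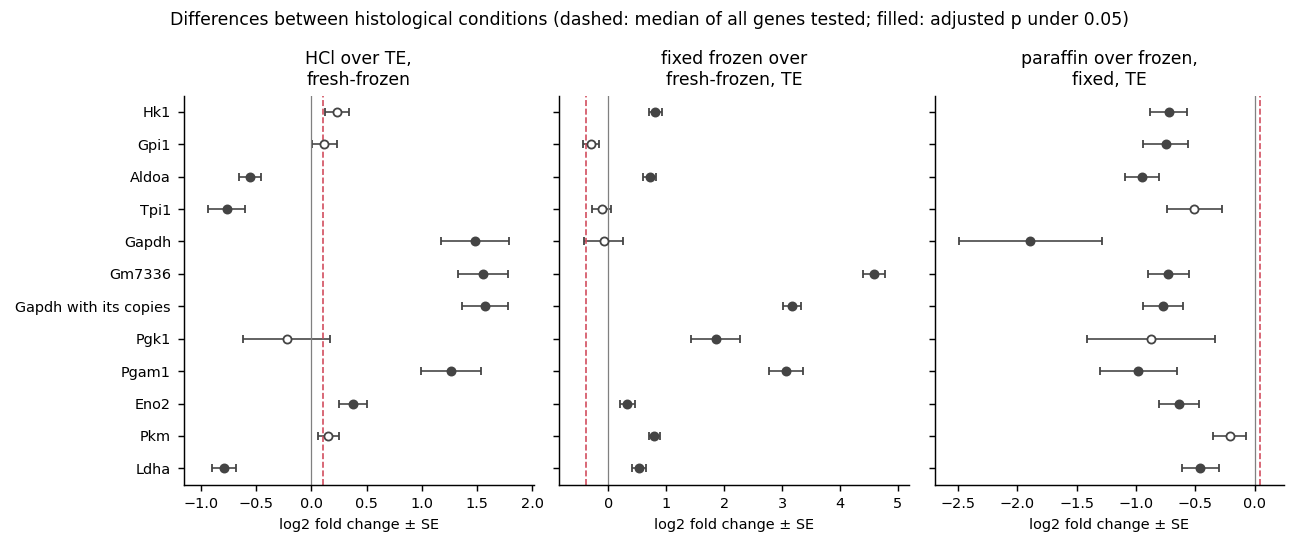
Log2 fold changes ± SE (edgeR) of the 10 enzymes, of Gm7336 and of Gapdh with its copies in 3 comparisons of section types, with filled points at adjusted p under 0.05 and dashed lines at the median of all genes tested. In fixed against fresh frozen sections Gapdh sits at −0.08 while Gm7336 sits at 4.58, and 7 of the 10 enzymes are filled to the right of 0.

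Regions were compared within each section type on 8 replicates. CA3 had the highest mean of the 3 regions for 7 of the 10 enzymes in fresh-frozen HCl, 7 in fresh-frozen TE, 10 in fixed frozen TE and 9 in fixed paraffin TE, where the place of Gapdh rests on 3 UMIs in 1 CA3 replicate. DG had the lowest mean for 8, 10, 9 and 6 of them. The order of the regions was not counted over all genes, so whether these places are particular to the enzymes was not tested. Of 120 tests of a member between 2 regions, 26 were called higher and 5 lower, 83 were not called, and 6 had too few UMIs to be tested. The shares of all genes called stand beside the calls of each comparison below. With every replicate thinned to the smallest total, 35932 UMIs, the tests called numbered 1 rather than 12 in fresh-frozen HCl, 0 rather than 7 in fresh-frozen TE and 5 rather than 9 in fixed frozen TE.

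In fresh-frozen HCl, 3 enzymes were higher in CA1 than in DG, where 8.61% of all genes tested were. They were Gapdh (4.21, SE 0.43, adjusted p = 3.95e-10), Pgk1 (3.40, SE 0.96, adjusted p = 0.0105) and Pgam1 (2.1003, SE 0.41, adjusted p = 0.000215). Pgk1 rested on 6, 5, 5 and 1 UMIs in CA1 and 0, 0, 1 and 0 UMIs in DG. Pgam1 had 38.3, 29.5, 29.9 and 39.3 CPM in CA1 against 11.4, 4.65, 6.35 and 12.6 CPM in DG. These 3 are also the 3 members with the fewest UMIs. With its copies added, Gapdh was higher by 1.81 (SE 0.27, adjusted p = 3.48e-06), which is less than the 4.21 of Gapdh alone. Gm7336 itself did not pass (−0.18, SE 0.30, adjusted p = 0.744).

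In fresh-frozen HCl, 6 enzymes were higher in CA3 than in DG, where 4.46% of all genes tested were. Gapdh (3.14, SE 0.56, adjusted p = 0.000431), Gpi1 (0.77, SE 0.17, adjusted p = 0.00366), Hk1 (0.66, SE 0.16, adjusted p = 0.0085) and Pkm (0.65, SE 0.15, adjusted p = 0.00432) were called with no overlap of replicates. Aldoa (0.54, SE 0.16, adjusted p = 0.0387) was called with overlap and lost its call in 4 of 8 fits that left out 1 replicate, and Pgk1 (3.20, SE 0.98, adjusted p = 0.0384) in 7 of 8. With replicates of equal number paired as a block, 9 members were called, while the calls over all 15161 genes rose from 1363 to 2619. With copies added, Gapdh no longer passed (0.92, SE 0.31, adjusted p = 0.0639). The 3 enzymes Gpi1 (−0.81, SE 0.16), Hk1 (−0.73, SE 0.16) and Aldoa (−0.65, SE 0.16) were lower in CA1 than in CA3, where 5.06% of all genes were.

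In fresh-frozen TE, Hk1 (0.58, SE 0.17, adjusted p = 0.0208) and Eno2 (0.57, SE 0.17, adjusted p = 0.0251) were higher in CA1 than in DG, 2 of 10 where 5.15% of all genes were. Each lost its call in 4 of 8 fits that left out 1 replicate. Between CA3 and DG, 5 enzymes were higher in CA3, where 4.35% of all genes were. They were Gapdh (1.90, SE 0.42, adjusted p = 0.00336), Hk1 (0.68, SE 0.16, adjusted p = 0.00587), Eno2 (0.57, SE 0.18, adjusted p = 0.0405), Gpi1 (0.54, SE 0.17, adjusted p = 0.0443) and Pkm (0.47, SE 0.14, adjusted p = 0.0402). Gapdh and Hk1 kept their calls whichever replicate was left out, and Eno2, Gpi1 and Pkm lost theirs in 5, 6 and 7 of 8 such fits. Without replicate 4 of DG, 2 rather than 7 tests were called in the section type, and without replicate 1 or 3 of DG or replicate 2 of CA3, 4 were. None of the 10 was lower in CA1 than in CA3 by edgeR, where 2.41% of all genes were, with 1 at an unadjusted p under 0.05 and 0 by DESeq2. Over all genes, 2033 of 14544 had an unadjusted p under 0.05, and DESeq2 called 527 of 11158. With the replicate block, 5 members were called between CA1 and DG, 5 between CA3 and DG and 1 between CA1 and CA3. Over all genes the block raised the calls from 1420 to 2262, from 1138 to 1946 and from 640 to 1222 in the same order.

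In fixed frozen TE, 7 enzymes were higher in CA3 than in DG, where 4.29% of all genes tested were. Gpi1 had 316, 381, 384 and 322 CPM in CA3 and 119, 199, 140 and 82.6 CPM in DG (1.30, SE 0.23, adjusted p = 1.08e-06). Pkm had 1080, 1250, 1100 and 1020 CPM in CA3 and 596, 762, 631 and 550 CPM in DG (0.80, SE 0.16, adjusted p = 4.28e-05). In both the regions did not overlap. Eno2 (0.88, SE 0.20), Ldha (0.64, SE 0.20), Aldoa (0.58, SE 0.15), Pgam1 (1.59, SE 0.39) and Pgk1 (2.27, SE 0.77, adjusted p = 0.0381) were the others called. Pgk1 lost its call in 5 and Ldha in 4 of 8 fits that left out 1 replicate. Gpi1 (−1.07, SE 0.25) and Aldoa (−0.66, SE 0.17) were lower in CA1 than in CA3, 2 of 10 where 3.86% of all genes were. Without replicate 2 of CA3, 4 rather than 9 of these tests were called in the section type. Between CA1 and DG, 0 of 10 were called by edgeR, where 3.36% of all genes were higher, with 1 at an unadjusted p under 0.05 and 0 by DESeq2. Over all genes, 1720 of 9385 had an unadjusted p under 0.05, and DESeq2 called 392 of 6292. In other edgeR settings, 1 was called without TMM, 1 with filterByExpr and 1 with the replicate block.

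Gapdh itself was not called between regions of fixed frozen TE (CA3 over DG 1.16, SE 0.67, adjusted p = 0.331), where it had 13 UMIs in CA3 and 11 in DG. Gm7336 was higher in CA3 than in DG (1.15, SE 0.21, adjusted p = 2.36e-06) and lower in CA1 than in CA3 (−1.31, SE 0.24, adjusted p = 3.02e-06). With copies added, Gapdh was higher in CA3 than in DG (1.23, SE 0.20, adjusted p = 3.6e-08).

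In fixed paraffin TE, Gapdh and Pgk1 had under 10 UMIs in each pair of libraries and were not tested. Ldha alone was higher in CA1 than in DG (0.90, SE 0.27, adjusted p = 0.0365), 1 of 8 where 0.870% of all genes were. Eno2 (1.62, SE 0.34, adjusted p = 0.00088) and Ldha (0.96, SE 0.28, adjusted p = 0.0334) were higher in CA3 than in DG, 2 of 8 where 1.93% were. Ldha lost these calls in 6 of 8 (CA1) and 5 of 8 (CA3) fits that left out 1 replicate. Eno2 had 157, 635, 878 and 75.2 CPM in CA3, against 81.4, 178, 188 and 109 CPM in DG. Its 4 CA3 values thus spanned both ends of the DG range, and 2 of 8 fits that left out a replicate lost the call. Over the 3 pairs of paraffin libraries, 3 tests were called, against 7 without replicate 1 of CA3, 1 without replicate 2 of CA3 or without replicate 1, 2 or 3 of DG, and 0 by DESeq2. No enzyme was called between CA1 and CA3 by edgeR, where 1.72% of all genes were lower in CA1, with 4 at an unadjusted p under 0.05. Over all genes, 902 of 7495 had an unadjusted p under 0.05. In 7 other edgeR settings 1 or 2 were called, among them 1 with the size factors of DESeq2, 1 with the replicate block and 2 with the third region in the fit. Gm7336 was higher in CA3 than in DG (2.17, SE 0.32, adjusted p = 1.35e-06).

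**Figure D5:**
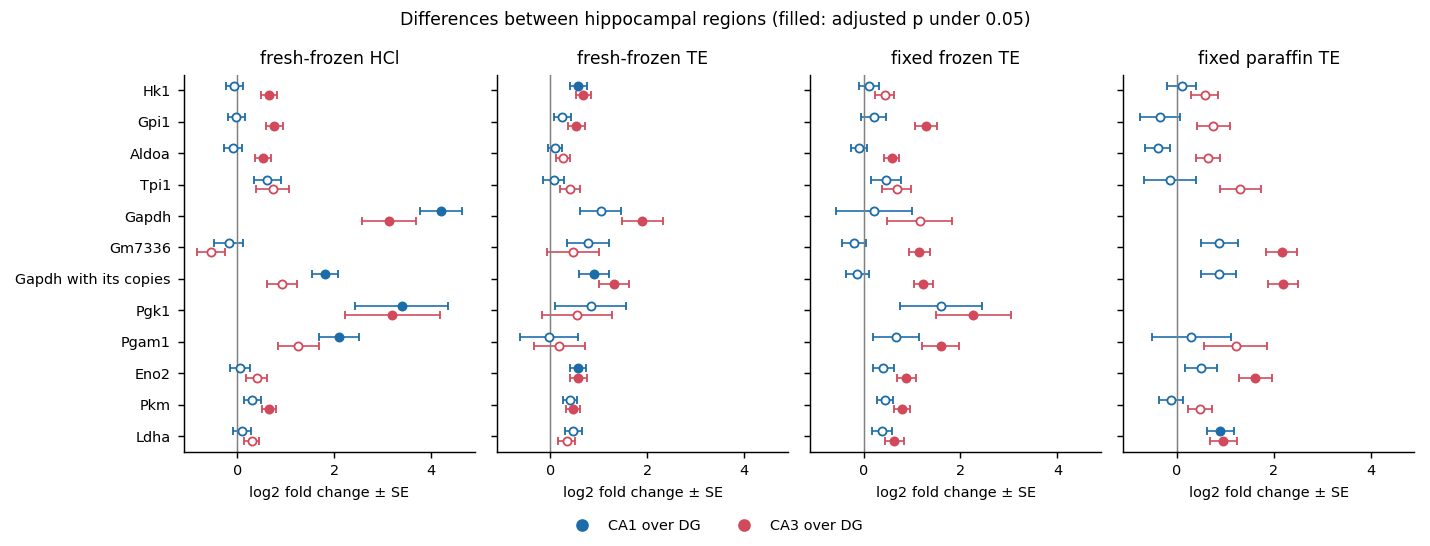
Log2 fold changes ± SE (edgeR) of CA1 over DG (blue) and CA3 over DG (red) for the 10 enzymes, Gm7336 and Gapdh with its copies in each section type, with filled points at adjusted p under 0.05. Gapdh reaches 4.21 in CA1 over DG of fresh-frozen HCl and is missing in fixed paraffin TE, and the CA3 points of most enzymes lie to the right of 0.

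Region markers and other cell types moved with these comparisons. Neuron markers were highest in CA3 in all 4 section types (3070 to 6650 CPM over the fixed frozen replicates), astrocyte markers in DG and oligodendrocyte markers in CA1. In fixed paraffin TE, choroid plexus markers had the highest mean in DG (3830 CPM), where replicates ranged from 565 to 13300 CPM. CA3 had a mean of 1480 CPM (732 to 2100) and CA1 of 1110 CPM (763 to 1470), so the place of DG rests on its highest replicate. Fixed frozen TE ranged from 157 to 2700 CPM. Endothelial markers had 213 to 354 CPM in fresh-frozen TE and 18.9 to 179 CPM in fixed frozen TE, and erythrocyte markers 263 to 700 CPM and 0 to 111 CPM. The part of these cell types in the differences of the enzymes was not tested.

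The difference between regions was then compared with that in fresh-frozen TE by the interaction term of a fit to all 48 replicates. Of 60 such tests of the 10 enzymes, 1 was called. Gapdh had a larger excess in CA1 over DG in fresh-frozen HCl than in fresh-frozen TE (3.11, SE 0.75, adjusted p = 0.0125), where 0.508% of all genes tested were called in this direction. Without replicate 3, in which CA1 of fresh-frozen HCl had 288 CPM, the difference was 2.42 (adjusted p = 0.171), and with copies added it was 0.86 (adjusted p = 0.482). For the other 9 enzymes a difference in the region effect between section types was not detected.

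The remaining enzymes of the pathway were fewer in UMIs or are isozymes of the members. Of 21 listed, 16 were tested between HCl and TE, with 6 higher and 1 lower in HCl, where 16.2% and 14.3% of all genes were, among them the phosphofructokinase Pfkl (0.97, SE 0.13, adjusted p = 2.86e-08). Of 15 tested between fixed and fresh frozen sections, 6 were higher and 2 lower, where 15.8% and 32.9% of all genes were. Besides the enolases, Pfkl (1.91, SE 0.17), Bpgm, the bisphosphoglycerate mutase (1.43, SE 0.19), Pgam2 (2.12, SE 0.64), Pfkp (0.80, SE 0.13) and Ldhb (0.36, SE 0.12) were higher. Pgam2 rested on 8 UMIs in fresh-frozen TE and 11 in fixed frozen TE, of which 1 replicate held 5. Aldoc was lower (−1.37, SE 0.13, adjusted p = 8.87e-16), from 498 to 684 CPM in fresh-frozen TE to 75.8 to 371 CPM in fixed frozen TE, with no overlap. The astrocyte markers were lower in the same libraries, and their part in the Aldoc difference was not tested. Of 12 tested between paraffin and frozen sections, 1 was higher and 5 lower, where 13.7% and 14.4% of all genes were, with Ldhb at −1.17 (SE 0.16) and Pfkm at −1.14 (SE 0.24).

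Regulators of the pathway, glucose and lactate transporters and genes of pyruvate entry into mitochondria followed no single direction, and their counts stand against the same shares of all genes. Between fixed and fresh frozen sections, 1 of 5 regulators tested was higher, Pfkfb3 (0.83, SE 0.25), which makes an activator of phosphofructokinase. Of 4 transporters tested, the glucose transporters Slc2a1 (−0.59, SE 0.21) and Slc2a3 (−0.43, SE 0.18) were lower. Of 9 genes of pyruvate entry, the carrier subunit Mpc2 (1.24, SE 0.15) and the dehydrogenase subunits Dld (1.44, SE 0.14) and Dlat (0.57, SE 0.13) were higher, and 0 were lower by edgeR, with 6 at an unadjusted p under 0.05 in either direction. In paraffin against fixed frozen sections, 5 of 8 genes of pyruvate entry were lower and 0 higher by edgeR, with 6 at an unadjusted p under 0.05, 2 of 4 transporters were higher and 1 of 5 regulators was lower. Between HCl and TE, 5 of 9 genes of pyruvate entry were lower, Pdha1 most (−0.84, SE 0.11), 1 of 6 regulators was higher and 2 were lower, and 0 of 5 transporters were called by edgeR, with 0 at an unadjusted p under 0.05. Between CA3 and DG, Pfkfb3 was higher in fresh-frozen HCl (1.24, SE 0.28), fresh-frozen TE (1.17, SE 0.34) and fixed frozen TE (1.49, SE 0.44).

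Over the 48 replicates, genes whose log2(CPM + 10) was among the most like that of Gapdh were Mt3 (Pearson's r = 0.784), Gng3 (0.756), Uqcrc1 (0.752) and Tuba1a (0.746), among the 9006 genes that averaged at least 5 UMIs per replicate. For the 10 enzymes summed, they were Arhgdig (0.786), Bbln (0.769), Eef1a2 (0.768), Mllt11 (0.765) and Gsta4 (0.764). The ranking for the sum left out the 10 enzymes themselves, and the ranking for Gapdh left out Gapdh. Their absence from the genes like the sum was therefore fixed in advance. These are descriptions over replicates that share libraries and depth.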

How the data were processed

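The deposited table holds raw UMI counts per gene and replicate, which the authors made without normalization. Per the labels and the paper's methods, they extracted barcodes and UMIs with UMI-tools 1.0.0, aligned reads to GRCm38 with HISAT2 2.1.0, assigned them to genes with featureCounts 1.6.4 and counted different UMIs of 6 bases per gene. As the methods call it, which the table cannot show, featureCounts leaves reads with several mapping places and reads over 2 genes uncounted and uses no strand, so genes with near-identical copies can lose reads. A further deposited file of barcode sequences was not used, and 0 columns lacked a sample. Reverse transcription was primed at the poly(A) tail, so a count is not proportional to transcript length, and levels were compared within a gene. No member reached more than 775 of the 4096 possible UMIs in a replicate.

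Counts were tested with edgeR 4.0.16 (quasi-likelihood test, TMM, genes with at least 10 UMIs over the replicates fitted, Benjamini-Hochberg adjustment over all genes tested, adjusted p under 0.05), in R 4.3.3. Fits between regions used the 8 replicates of both, fits between section types 24 replicates with region as covariate, and the interaction all 48. The SE of a fold change is its size over the square root of F. The replicates of a library share its preparation, so p-values measure the spread between replicates within libraries. The fits were tested on simulated data. DESeq2 1.42.0 was an alternative, as were other scalings and filters, thinning, sums per library, single regions and leaving out replicates. CPM are UMIs scaled to a replicate total of 1000000. Windows of 50 bases were searched without mismatch on both strands of all GENCODE M21 transcripts, since no genome sequence was used here, and copies outside annotated genes were not searched.

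Named genes are the 10 members, the genes with at least 10 UMIs that share windows with a member (at most 10), isozymes and called genes of the lists of other enzymes, regulators, transporters and pyruvate entry, and the 5 genes most like Gapdh and the summed members, of which 1 is not reported here. By UMIs, the second set would hold unrelated genes with the repeat found in Gpi1, so those of Gapdh were named instead. Members and lists were chosen with earlier results of these data known. Fits are without a replicate block, and blocked counts stand beside them where they differ and equal numbers met the criterion for pairing, deviations correlated above 0.1 in all 4 (fresh-frozen TE in all 3 pairs of libraries, 0.18 to 0.338, and CA3 with DG in fresh-frozen HCl, 0.228 to 0.433). The other 8 pairs of libraries did not meet this.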

Additional observations from a re-analysis of the deposited data

Results flagged for a closer look

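In 12 of 120 groups of 4 replicates, the highest or lowest value of an enzyme stood apart from the others by Dixon's criterion for the gap over the range, where chance alone at 1 in 20 would give 6. Of these, 4 are replicates with UMIs against 3 at 0. Gapdh had 30.2 CPM in replicate 2 of CA3 and 8.97 CPM in replicate 3 of DG in fixed paraffin TE, with the other 3 replicates of each at 0. Pgk1 had 1.27 CPM in replicate 3 of DG in fresh-frozen HCl and 8.89 CPM in replicate 2 of DG in fixed paraffin TE, likewise with 3 replicates at 0. It had 11.7 CPM in replicate 4 of CA3 in fresh-frozen TE. Replicate 3 of CA1 in fresh-frozen HCl had the low Pgk1 value of 5.75 CPM. Gapdh also had 14.0 CPM in replicate 2 of DG in fresh-frozen HCl, against 4.19 to 5.68 CPM in the others. Eno2 had 676 CPM in replicate 2 of CA3 in fresh-frozen HCl, against 369 to 375 CPM, and Pgam1 had 27.4 CPM in replicate 4 of the same library, against 13.9 to 16.1 CPM. Tpi1 had 205 CPM in replicate 2 of CA3 in fixed frozen TE, against 110 to 114 CPM. In fixed paraffin TE, Hk1 had a low value of 198 CPM in replicate 2 of CA1, and Aldoa one of 461 CPM in replicate 1 of DG.

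The difference of Gapdh between CA1 and DG was larger in fresh-frozen HCl than in fresh-frozen TE by 3.11 on the log2 scale (interaction term of edgeR, adjusted p = 0.0125). It was 2.42 without replicate 3 (adjusted p = 0.171), and 0.86 with the UMIs of copies added (adjusted p = 0.482). Causes were not tested.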

How the results depend on the processing

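The 52 called tests of the 10 enzymes were repeated under 953 alternatives, of which 775 kept the call, 176 lost it and 2 turned the direction, and 11 tests kept the call throughout. Calls between regions numbered 12 in fresh-frozen HCl (19 with the replicate block, 1 thinned, 10 to 14 leaving out a replicate), 7 in fresh-frozen TE (4 with DESeq2 size factors in edgeR, 4 without TMM, 11 with the replicate block, 0 thinned, 2 to 7), 9 in fixed frozen TE (5 thinned, 4 to 10) and 3 in fixed paraffin TE (0 with DESeq2, 5 with filterByExpr, 5 with the replicate block, 5 with copies added to Gapdh, 1 to 7). HCl over TE had 6 calls (2 thinned, 3 within CA3, 5 to 6 leaving out a replicate), fixed over fresh 7 (4 within CA1, 6 to 7), paraffin over frozen 7 (3 with DESeq2, 3 with filterByExpr, 3 thinned, 1 within CA1, 2 within CA3, 4 within DG, 4 without the DG libraries, 4 to 7, 4 being without replicate 1) and the interaction 1 (0 thinned, 0 with copies added, 0 to 1, lost without replicate 3). The share of Gapdh windows found elsewhere, 90.5%, was 84.0% for windows of 75 bases, 76.8% for 100 bases, 82.9% over the last 300 bases and 95.5% over the last 1000. With up to 1 mismatch it was 90.9%. In the library pairs that did not meet the criterion, whether equal numbers mark paired replicates was not settled. Over all 12 pairs, 35 of 48 replicates correlated best with their own number. Among the pairs below the criterion, this ran from 0 of 4 (fresh-frozen HCl CA1 with DG) to 4 of 4 (fixed paraffin TE CA1 with DG).

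Directions turned for Gapdh, fixed frozen TE CA1 over DG (0.22): −0.13 with copies added, −0.13 without CA1 replicate 2 and −0.12 without CA1 replicate 3, with a range of −0.13 to 1.25 over the fits that left out a replicate. For Gapdh, fresh-frozen HCl over fresh-frozen TE, the value within DG was −0.41, and for Pgam1, fresh-frozen HCl over fresh-frozen TE, it was −0.0117. Gapdh, fixed frozen TE over fresh-frozen TE (−0.08), was 0.65 thinned, 3.18 with copies added, 0.0485 summed per library, 0.49 within DG, 0.0662 without replicate 3 (−0.47 to 0.0662 leaving out a replicate) and 0.0296 without the CA3 libraries. Thinning leaves fewer UMIs, and single regions fewer replicates. The cause of these changes of direction was not tested. Adding copies was chosen after seeing the data. Gapdh and Pgk1 were measured coarsely in fixed tissue, where 1 UMI is up to 27.8 CPM.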

Other observations

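Between fixed and fresh frozen sections with TE, 203 of 384 annotated processed pseudogenes tested by edgeR were higher in fixed tissue (52.9%) and 77 were lower, with a median log2 fold change of 1.47. Of 12866 protein-coding genes, 17.1% were higher and 29.6% lower, with a median of −0.26. In HCl over TE, 82 of 511 processed pseudogenes were higher and 27 lower, and in paraffin over fixed frozen sections 45 of 254 were higher and 31 lower. These classes were looked at after the values of Gm7336 had been seen, and no test of the classes was made.

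The genes whose log2(CPM + 10) was most like that of Gm7336 over the 48 replicates were ENSMUSG00000097554 (Pearson's r = 0.944), Rpl28-ps1 (0.929), Myl12b (0.928), Ubb-ps (0.928) and Clip3 (0.922). The replicates share libraries, section type and depth, so these values are descriptions.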
